A study of Arabidopsis thaliana with 36 samples.

Results

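The genes described here drive or restrain the plant cell cycle and DNA replication. They are 44 Arabidopsis thaliana loci out of 32548 in the deposited tables, chosen by locus and function with earlier results of these data known. The set holds 6 D-type, 6 A-type and 9 B-type cyclins, 5 cyclin-dependent kinases (CDKs), the 6 subunits of the MCM helicase, 5 CDK inhibitors, 6 genes of replication licensing, S phase and E2F control, and the cytokinesis gene KN. All 44 loci were present, and all 44 were among the 23297 genes whose mean value over the libraries reached 1 and which were therefore tested.

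Transcripts were measured by RNA-seq in 36 libraries of whole seedlings aged 12 days, 3 libraries for each of 12 genotypes. One genotype was wild type (wt). The other 11 were mutant for parts of the SWI/SNF machines, remodellers that shift nucleosomes along DNA with energy from ATP. By their labels these were brm-/-, the triple mutant of brd1, brd2 and brd13 (brd1213), the double mutant of brip1 and brip2 (brip12), syd-/-, swi3d-/- and the triple mutant of sys1, sys2 and sys3 (sys123). The remaining lines were the double mutants of minu1 and minu2 (minu12), of pms2a and pms2b (pms2ab) and of bcl7a and bcl7b (bcl7ab), and the single mutants swp73b-/- and an3-/-. As background on the study, 8 of these mutants belong to 3 kinds of complex: BAS (brm, brd1213, brip12), SAS (syd, swi3d, sys123) and MAS (minu12, pms2ab). The comparisons set every mutant against wild type and the classes against each other.

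Plant cells commit to division when D-type cyclins, with the kinase CDKA, relieve the retinoblastoma-related protein and free E2F factors to switch on S phase genes. Among those are the genes of the MCM complex, which is loaded onto replication origins by ORC, CDC6 and CDT1 and unwinds DNA ahead of the polymerases, and of PCNA, the sliding clamp. A- and B-type cyclins with the plant-specific B-type kinases then carry cells through G2 and mitosis, while KRP and SIAMESE-related proteins inhibit CDKs and favour endoreduplication, the replication of DNA without division that is common in leaves.

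Reads on genes numbered 21070583 to 23761910 per library, and values are given below as normalised read counts, the deposited values scaled to a common library size. Of 17 mutated genes checked as a test of the labels, 14 fell in their own mutant. The smallest of these falls were in sys123 and brip12. SYS1, SYS2 and SYS3 stood at 74.05%, 69.61% and 84.29% of wild type in sys123 (SYS3 limma adjusted p = 0.0479). BRIP1 stood at 64.92% in brip12. The sys123 label thus rests on partial falls. BRD1 rose to 199.6% of wild type in brd1213, SYD rose to 165.1% in the libraries labelled syd, and AN3 stood at 101.6% in those labelled an3, so these 3 sets are called by their labels only. The pms2a and pms2b loci were not among those checked, so pms2ab too is called by its label. The tables hold 1 value per gene, which cannot show reads from an undeleted part. Whether plants were grown apart for each library is not stated, so a p-value reflects the scatter among these libraries alone, possibly technical in origin. In whole seedlings, fewer dividing cells and less transcript per cell cannot be told apart.

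The clearest differences were a rise of replication genes in minu12, pms2ab and brm and a fall of replication genes in sys123. A gene is said to have risen or fallen where limma's adjusted p was under 0.05, and changes are differences of log2(value + 1) from wild type. In minu12, 27 of the 44 genes rose and 1 fell (61.4% and 2.27%), where 24.1% of all tested genes rose and 24.8% fell. In pms2ab, 20 rose and 3 fell (45.5% and 6.82%), against 29% and 29.8% of all genes. In brm, 18 rose and 3 fell (40.9% and 6.82%), against 24.7% and 25.5%. The split between higher and lower calls over all genes was thus nearly even in these 3 mutants, while the cell cycle genes were called mostly higher. In sys123, 4 rose and 13 fell (9.09% and 29.5%), against 14.2% and 12.8% of all genes. Scaling by library totals gave 1 rise and 16 falls in sys123, and edgeR's quasi-likelihood test 2 rises and 12 falls. Library totals also moved the share of higher among all sys123 calls from 52.5% to 31.7%. Falls thus became commoner over all genes too.

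In the other mutants the shares of genes called lay nearer to those of all genes or below them. In swp73b, 10 genes rose and 4 fell (22.7% and 9.09%), against 23.9% and 25.5% of all genes. Under library totals 16 rose and 3 fell, while the share of higher among all swp73b calls moved from 48.3% to 61.2%. In swi3d, 4 rose and 6 fell (9.09% and 13.6%), against 11.2% and 11%. Under library totals 1 rose and 6 fell, while the share of higher among all swi3d calls moved from 50.6% to 46.3%. The libraries labelled syd gave 2 rises and 7 falls (4.55% and 15.9%), against 11.9% and 11.3%. In brip12, 2 rose and 6 fell (4.55% and 13.6%), against 11.8% and 13.2%, and in brd1213, 1 rose and 5 fell (2.27% and 11.4%), against 9.23% and 10.6%. In bcl7ab, 1 rose and 1 fell, against 16.4% and 14.2% of all genes. The libraries labelled an3 gave 1 rise and no fall, against 5.03% and 5.74%. The median log2 change over the 44 genes was 0.41 in minu12, 0.36 in pms2ab, 0.25 in brm and −0.22 in sys123, and that over all genes lay between −0.02 and 0.02 in every mutant.

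The calls of several mutants rested on single libraries. The 17 calls in sys123 became 11 without wild-type library 3 or without sys123 library 3. The 6 calls in brd1213 became 1 without brd1213 library 3, 3 without library 1 and 2 without wild-type library 3. The 8 in brip12 became 2 without wild-type library 3, 5 without wild-type library 2 and 3 without either of its own libraries 1 and 2. The 9 calls of the libraries labelled syd became 5 without wild-type library 2 or 3. The 10 in swi3d became 5 without its library 1 or 3, and 6 without its library 2 or wild-type library 1. The 2 calls in bcl7ab became 4 without wild-type library 1, and the 1 call of the libraries labelled an3 became 0 without wild-type library 3 or an3 library 1 or 3, and 2 without wild-type library 2 or an3 library 2. In limma fits of only the 2 groups compared, the calls numbered 8 in sys123, 5 in swi3d, 3 for syd, 2 in brip12, 1 in brd1213 and 0 for an3. The counts of brm, minu12, pms2ab and swp73b stayed within 1.5 times under both checks.

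**Figure D1:**
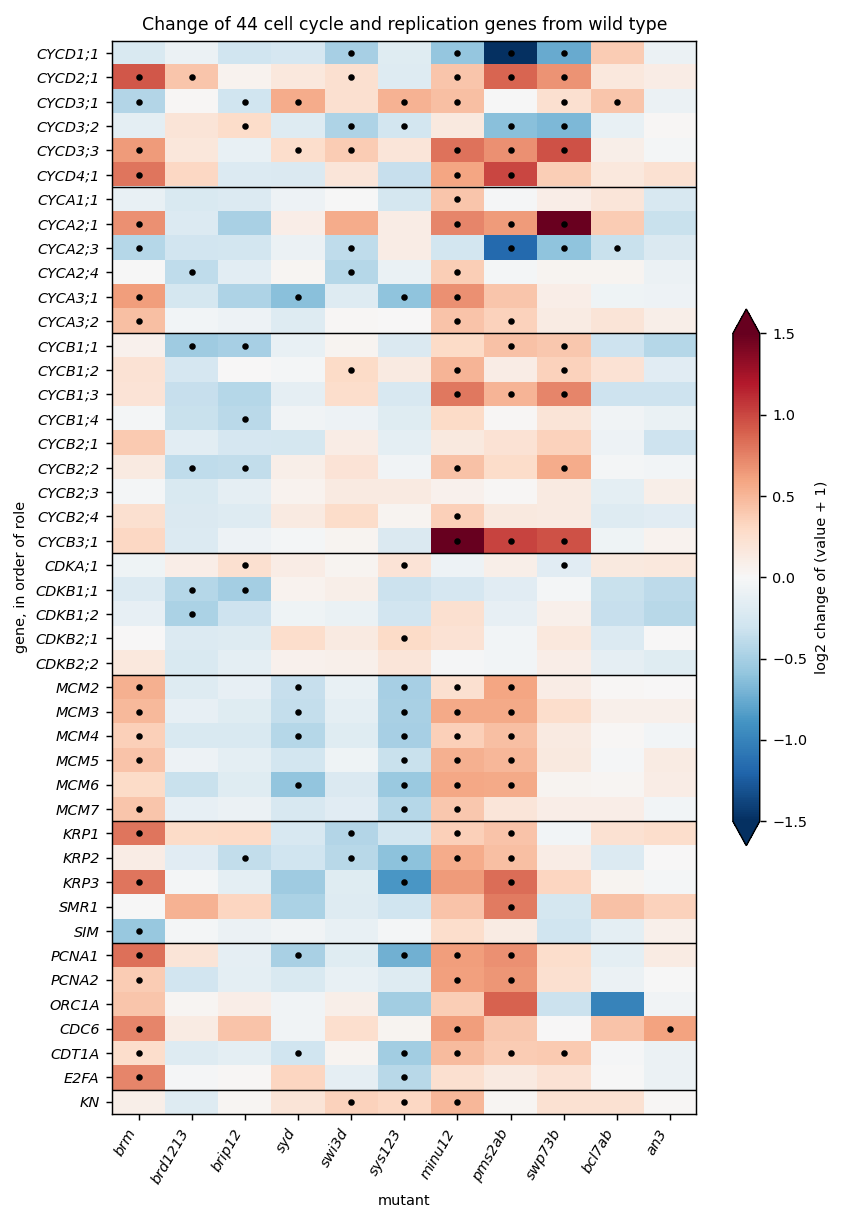
Log2 change of (value + 1) from wild type for the 44 genes (rows, in order of role, lines between roles) in the 11 mutants (columns), with red for higher and blue for lower. Dots mark genes called at a limma adjusted p under 0.05; the MCM rows are red in brm, minu12 and pms2ab and blue in sys123 and the libraries labelled syd, and colours beyond 1.5 are shown at the end of the scale.

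**Figure D2:**
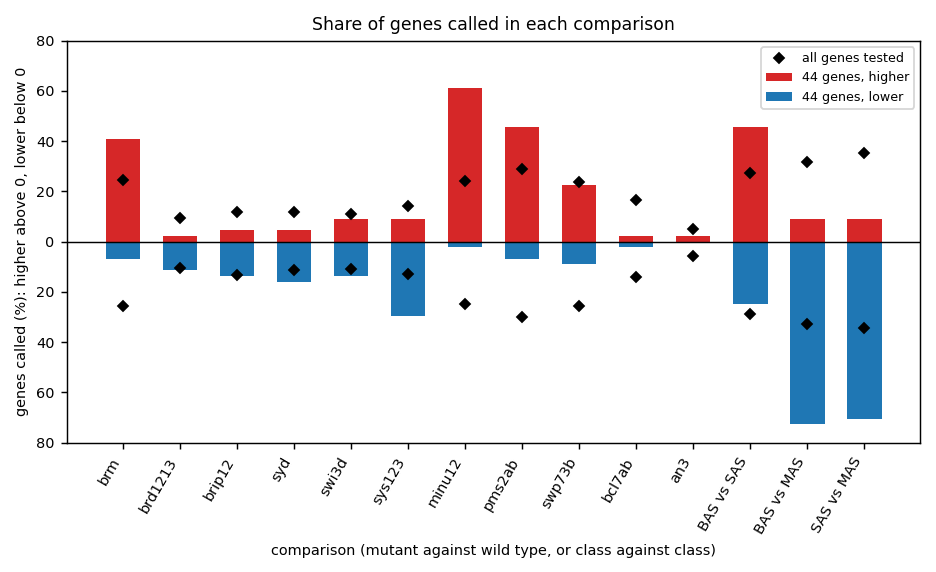
Percent of the 44 genes called higher (red bars, above 0) or lower (blue bars, below 0) in each comparison with wild type or between classes, with diamonds for the percent of all tested genes called. In minu12 the red bar reaches 61.4% where the diamond is at 24.1%, and in sys123 the blue bar reaches 29.5% where the diamond is at 12.8%.

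The MCM genes encode the ring-shaped helicase that opens DNA at replication forks. All 6 rose in minu12, 5 of 6 rose in brm and in pms2ab, all 6 fell in sys123, and 4 of 6 fell in the libraries labelled syd. None was called in brd1213, brip12, swi3d, swp73b, bcl7ab or the libraries labelled an3, by limma or by edgeR's quasi-likelihood test. At an unadjusted limma p under 0.05 there were 2 in brd1213, 1 in brip12, 1 in swp73b and 0 in the other three. The median change over the 6 genes was 0.53 in pms2ab, 0.47 in minu12, 0.42 in brm, −0.35 for syd and −0.49 in sys123, on the log2 scale. With wild-type library 2 or syd library 1 left out, 2 falls remained for syd, while sys123 had 5 or 6 falls with any 1 library left out.

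MCM6 (AT5G44635) had the widest span of the 6. It stood at 254, 240.1 and 214 reads in wild type and 345, 354 and 356 in minu12, a change of 0.58 ± 0.13 (SE, limma adjusted p = 0.000514). In pms2ab it stood at 347, 330.5 and 376, a change of 0.57 ± 0.13 (SE, limma adjusted p = 0.000385). In both mutants every library lay above every wild-type library. The share of all tested genes so separated from wild type is not given, here or for the genes below. The libraries labelled syd held 139, 151 and 178 reads, a change of −0.59 ± 0.13 (SE, limma adjusted p = 0.000955), and sys123 held 167, 160.5 and 153, a change of −0.55 ± 0.13 (SE, limma adjusted p = 0.00205). All 6 of these libraries lay below wild type. The brm libraries, at 299, 296 and 269.8, were also all above wild type, but the change of 0.29 was not called (limma adjusted p = 0.0634).

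MCM3 (AT5G46280) stood at 329, 403 and 354 reads in wild type, 510.2, 513 and 498 in brm, 495, 506 and 619 in minu12 and 512, 518 and 577 in pms2ab. The changes were 0.49, 0.57 and 0.57. It stood at 297, 281 and 203 in sys123, a change of −0.49 ± 0.11 (SE, limma adjusted p = 0.00174). The groups did not overlap in any of these 4 comparisons. MCM2 (AT1G44900) rose by 0.53 in brm and 0.59 in pms2ab and by 0.25 in minu12, where the call failed with any of 5 of the 6 libraries left out, and fell by 0.50 in sys123 on the log2 scale. MCM7 (AT4G02060), also known as PROLIFERA, rose by 0.41 in brm and 0.41 in minu12, and its change of 0.18 in pms2ab was not called (limma adjusted p = 0.147). MCM4 (AT2G16440) and MCM5 (AT2G07690) rose in all 3 of these mutants, by 0.35 to 0.53, and fell in sys123, by 0.50 and 0.33 on the log2 scale. The MCM5 fall failed without wild-type library 3 or sys123 library 3.

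**Figure D3:**
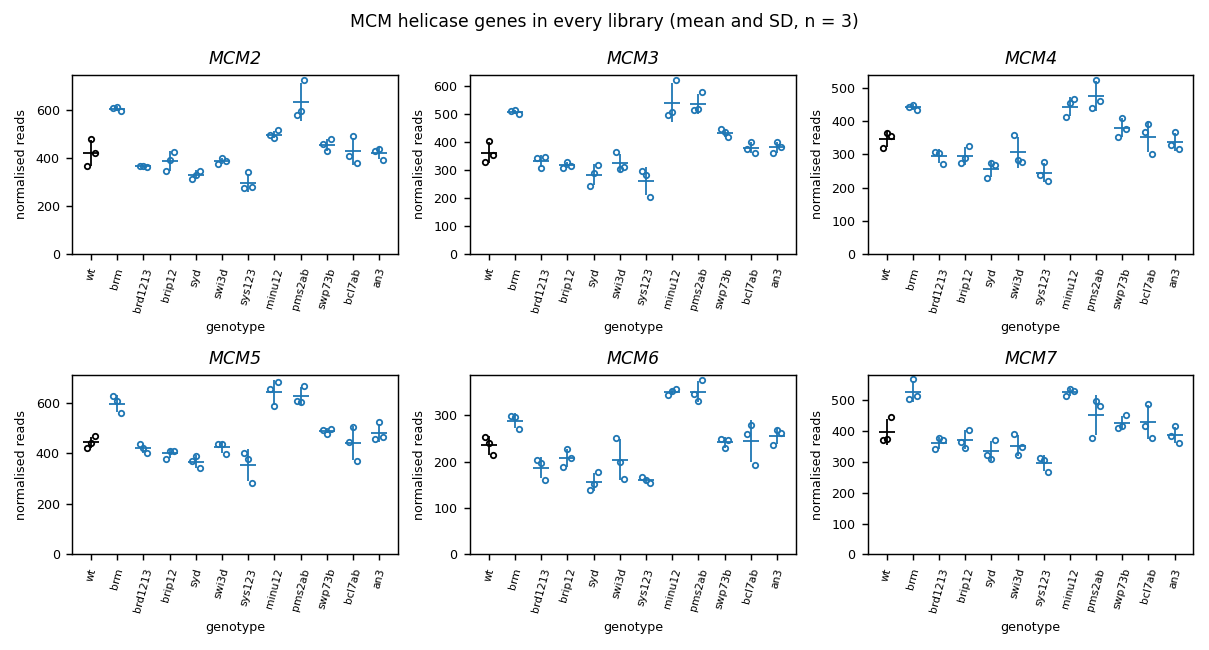
Normalised reads (linear axis from 0) of the 6 MCM genes in each of the 36 libraries, by genotype, with wild type in black; circles are libraries, dashes the mean and bars the SD (n = 3). The brm, minu12 and pms2ab libraries lie above wild type for MCM3, and the sys123 libraries lie below wild type for all 6 genes. The share of all tested genes separated in this way is not given.

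Across the 36 libraries the 6 MCM genes moved together, with a median Pearson r of log2 values of 0.9 over 15 pairs and a range of 0.82 to 0.94. These libraries share the scaling and fall into 12 genotypes, so r is a description only. The gene most like MCM5 outside the complex was CYCA3;1 (r = 0.92 over 36 libraries), followed by PCNA1 (0.9), PCNA2 and CDT1A (0.88 each, the latter with MCM3) and KRP2 (0.86).

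Because these genes moved together, their promoters were read for the binding site of E2F, the factor that switches on S phase genes. The letters searched were TTTCCCGC and TTTGGCGC on both strands, in the 300 bases before each gene's start in the RefSeq annotation of TAIR10.1. Of 27443 protein-coding genes, 295 held such a match (1.07%). Of the 6 MCM genes, 5 did (83.3%), and of all 44 genes, 7 did (15.9%), the other two being CYCD3;3 and ORC1A. MCM7 held none, which says only that these letters are not in this window, part of which lies in the neighbouring gene. A match is a description of the sequence, not a shown binding site. The matches stand 14 bases before the gene start in MCM2, 170 in MCM3, 35 in MCM4, 19 in MCM5 and 46 in MCM6. The 60-base stretches around them lie at chr1:16970154-16970213 (plus strand) and, on the minus strand, at chr5:18773843-18773902, chr2:7130731-7130790, chr2:3527501-3527560 and chr5:18010680-18010739. Each is written 5′ to 3′ on the gene's strand, with the matching letters in capitals.
MCM2: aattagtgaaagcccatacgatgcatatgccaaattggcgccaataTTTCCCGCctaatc
MCM3: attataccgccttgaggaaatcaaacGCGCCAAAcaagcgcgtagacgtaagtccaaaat
MCM4: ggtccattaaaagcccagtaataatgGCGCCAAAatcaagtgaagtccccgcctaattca
MCM5: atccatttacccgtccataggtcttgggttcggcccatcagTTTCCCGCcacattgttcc
MCM6: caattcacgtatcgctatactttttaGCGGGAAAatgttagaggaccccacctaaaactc

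The other S phase genes followed much of this pattern in brm, minu12 and pms2ab. PCNA1 (AT1G07370), a gene for the sliding clamp, stood at 266, 255 and 356 reads in wild type and 560.3, 478 and 498 in brm, a change of 0.82 ± 0.14 (SE, limma adjusted p = 1.89e-05). It stood at 181, 180.3 and 163 in sys123, a change of −0.72 ± 0.14 (SE, limma adjusted p = 0.000332). No library of these mutants overlapped wild type. In the libraries labelled syd it stood at 194, 212 and 212, a change of −0.49 ± 0.14 (SE, limma adjusted p = 0.0121), which did not pass once wild-type library 3 was dropped (limma adjusted p = 0.118). PCNA1 also rose by 0.63 in minu12 and 0.68 in pms2ab. PCNA2 (AT2G29570), the second clamp gene, rose by 0.38 in brm (not called without brm library 1), 0.61 in minu12 and 0.66 in pms2ab, and was not called in sys123 (−0.20, limma adjusted p = 0.218). How reads shared by such closely similar genes were assigned is not given, so values of the pair are uncertain.

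The licensing genes were less uniform. CDT1A (AT2G31270), which loads the helicase, rose in brm (0.27), minu12 (0.47), pms2ab (0.38) and swp73b (0.39), and fell in sys123 (−0.53) and the libraries labelled syd (−0.30). The brm and syd calls each failed with any of 4 of the 6 libraries left out. CDC6 (AT2G29680), its partner in loading, rose in brm (0.73) and minu12 (0.63, not called without wild-type library 1). It was the 1 gene of the 44 called in the libraries labelled an3, at 136, 103 and 147 reads against 64.5, 99.6 and 90.4 in wild type, a change of 0.60 ± 0.19 (SE, limma adjusted p = 0.0361). That call did not pass once wild-type library 1 or 3 or an3 library 1 or 3 was dropped (limma adjusted p from 0.0526 to 0.239). E2FA (AT2G36010), an E2F factor itself, rose in brm alone among the rises called, at 283, 219 and 224 against 133, 142 and 160.0 reads (0.73 ± 0.16 SE, limma adjusted p = 0.000271), and fell in sys123 (−0.41, limma adjusted p = 0.0485), a fall that failed with any of 5 of the 6 libraries left out. Without brm library 1, 3 in place of 5 of these 6 genes rose in brm. ORC1A (AT4G14700), a subunit of the origin recognition complex, was read only 7.3, 6.29 and 14.7 times in wild type and was called in no mutant.

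D-type cyclins carry growth and hormone signals into the cycle, and their genes moved in opposite directions. CYCD1;1 (AT1G70210) had the largest fall of any of the 44 genes. It stood at 944, 854 and 888 reads in wild type and 203, 229 and 212 in pms2ab, a change of −2.06 ± 0.16 (SE, limma adjusted p = 4.6e-12). It stood at 617, 633 and 382 in swp73b (−0.75 ± 0.16 SE, limma adjusted p = 0.000205) and 538, 644 and 623 in minu12 (−0.58 ± 0.16 SE, limma adjusted p = 0.00293). In swi3d it stood at 586, 661 and 653 (−0.50 ± 0.16 SE, limma adjusted p = 0.02). All libraries of these 4 mutants lay below all wild-type libraries. The swi3d call did not pass once wild-type library 1 or swi3d library 1 was dropped.

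CYCD2;1 (AT2G22490), whose overexpression is known to speed plant growth in tobacco, rose in 6 of the 11 mutants and fell in none. Its reads numbered 672, 631 and 699 in wild type, 1299, 1194 and 1327 in brm and 1192, 1159 and 1314 in pms2ab. The changes were 0.93 ± 0.07 (SE, limma adjusted p = 6.04e-11) and 0.87 ± 0.07 (SE, limma adjusted p = 4.61e-11). It also rose in swp73b (0.67), minu12 (0.41), brd1213 and, less firmly, swi3d (0.24, a call that failed without wild-type library 2 or swi3d library 1 or 3). In brd1213, at 850.2, 909 and 922 reads, it was the 1 gene of the set that rose (0.42 ± 0.07 SE, limma adjusted p = 0.000105). CYCD4;1 (AT5G65420) rose in the same 3 mutants as the MCM genes, at 169, 194 and 183 reads in pms2ab against 62.5, 107 and 109.6 in wild type (limma adjusted p = 9.67e-06), by 0.81 in brm and by 0.60 in minu12, in the last not without wild-type library 1.

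The 3 CYCD3 genes, which are known to keep leaf cells dividing, each had a pattern of their own. CYCD3;1 (AT4G34160) stood at 727, 636 and 816 reads in wild type and 1166, 1046 and 989.9 in the libraries labelled syd (0.56 ± 0.10 SE, limma adjusted p = 8.57e-05). In sys123 it stood at 1012, 1016 and 1078 (0.52 ± 0.10 SE, limma adjusted p = 0.000259), in minu12 it rose by 0.45, in swp73b, where the libraries overlapped wild type, by 0.24 and in bcl7ab, at 1054, 955 and 894, by 0.42 ± 0.10 (SE, limma adjusted p = 0.00187). It fell in brm, at 484, 606 and 512 reads (−0.44 ± 0.10 SE, limma adjusted p = 0.000452), and in brip12 (−0.30). The swp73b and brip12 calls each failed with any of 4 of the 6 libraries left out. The rise in bcl7ab was not called when libraries were scaled by their totals (log2 change 0.25, limma adjusted p = 0.0766).

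CYCD3;3 (AT3G50070) rose in 6 mutants and fell in none. It stood at 320.5, 299 and 307 reads in wild type, 548, 599 and 656 in swp73b (0.95 ± 0.09 SE, limma adjusted p = 8.77e-10) and 554, 515 and 564 in minu12 (0.81 ± 0.09 SE, limma adjusted p = 6.61e-09). It also rose in pms2ab (0.68), brm (0.64), swi3d, at 402, 373 and 431 reads (0.38 ± 0.09 SE, limma adjusted p = 0.00188), and the libraries labelled syd, at 348, 371 and 396 reads (0.26 ± 0.09 SE, limma adjusted p = 0.0248). The mutant libraries lay above wild type in all 6, and the syd call did not pass once library 2 or 3 of wild type or of syd was dropped.

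CYCD3;2 (AT5G67260) went the other way. It stood at 929.5, 845 and 878 reads in wild type, 513, 637 and 524 in swp73b (−0.67 ± 0.10 SE, limma adjusted p = 3.05e-06) and 616, 554 and 549.5 in pms2ab (−0.62 ± 0.10 SE, limma adjusted p = 4.18e-06). In swi3d it stood at 734, 580.5 and 613 (−0.47 ± 0.10 SE, limma adjusted p = 0.00104), and it fell by 0.28 on the log2 scale in sys123, a call that failed with any of 4 of the 6 libraries left out. In these 4 mutants no library reached the wild-type range. In brip12 it stood at 1201, 982 and 1029, a rise of 0.27 ± 0.10 (SE, limma adjusted p = 0.0466) that was not called in fits without wild-type library 1, 2 or 3 or without brip12 library 1 or 3. In swp73b, pms2ab and swi3d, then, CYCD3;3 was called higher and CYCD3;2 lower, and in sys123 CYCD3;1 was called higher and CYCD3;2 lower.

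**Figure D4:**
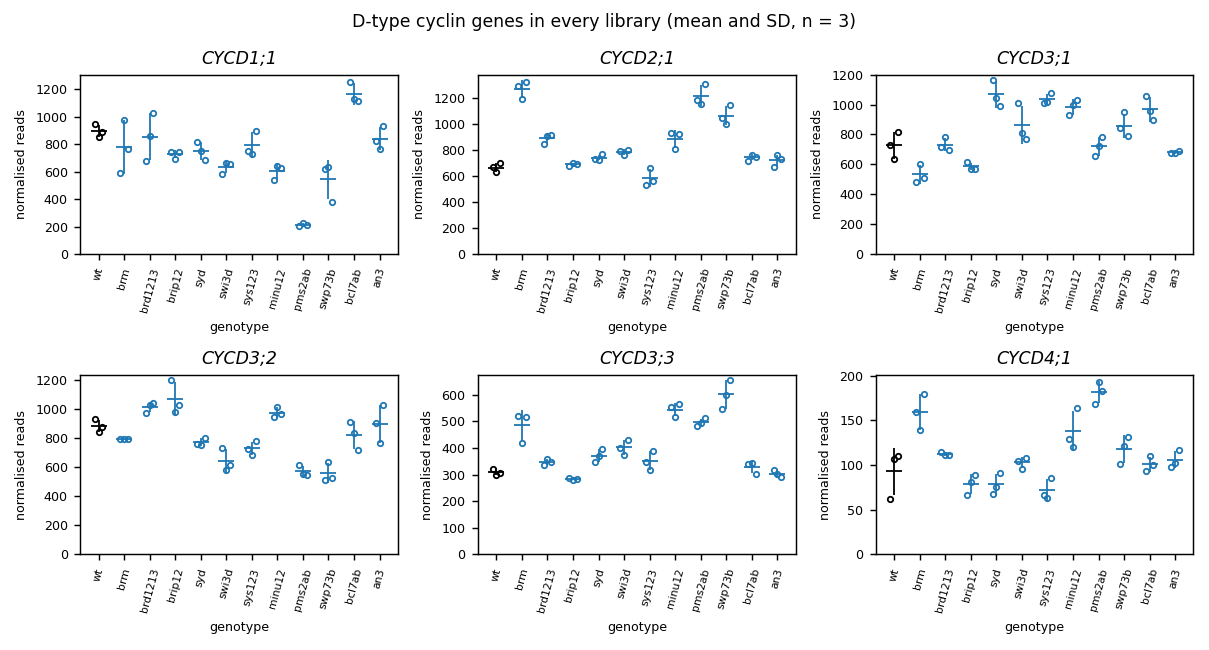
Normalised reads (linear axis from 0) of the 6 D-type cyclin genes in each library, by genotype, with wild type in black; circles are libraries, dashes the mean and bars the SD (n = 3). The pms2ab libraries hold 203 to 229 reads of the D1 gene where wild type holds 854 to 944.

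A-type cyclins act from S phase to early mitosis. CYCA2;3 (AT1G15570), known to restrain endoreduplication, fell in 5 mutants and rose in none. It stood at 484, 506 and 484 reads in wild type and 203, 225 and 227 in pms2ab (−1.17 ± 0.12 SE, limma adjusted p = 1.6e-09). The other falls were in swp73b, at 286, 386 and 305 (−0.60 ± 0.12 SE, limma adjusted p = 0.000121), brm, at 359.6, 397 and 341 (−0.43 ± 0.12 SE, limma adjusted p = 0.00366), swi3d (−0.38) and bcl7ab, at 426, 423 and 328 (−0.33 ± 0.12 SE, limma adjusted p = 0.0331). In each the mutant libraries lay below wild type, and the bcl7ab call did not pass once any wild-type library or bcl7ab library 3 was dropped. The swi3d call failed without wild-type library 2 or swi3d library 2 or 3.

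Its relative CYCA2;1 (AT5G25380) rose in 4 mutants. It was read 17.7, 16.7 and 33.8 times in wild type and 60.3, 62.4 and 64.2 times in swp73b (1.49 ± 0.26 SE, limma adjusted p = 2.66e-05). It rose by 0.73 in minu12, 0.69 in brm and 0.63 in pms2ab. In those 3 mutants wild-type library 3, at 33.8 reads, overlapped the mutant range, and the calls failed with any of 3 to 5 of the 6 libraries left out. CYCA3;1 (AT5G43080), an S phase cyclin, rose in brm (0.63) and minu12 (0.69) and fell in sys123 (−0.60) and the libraries labelled syd. There it stood at 35.1, 59.5 and 52 reads against 64.4, 68.7 and 92.5 in wild type (−0.63 ± 0.19 SE, limma adjusted p = 0.014). That call did not pass once wild-type library 3 or syd library 1 was dropped, nor the sys123 call once library 3 of wild type or sys123 was. CYCA3;2 (AT1G47210) rose in brm (0.45), minu12 (0.43) and pms2ab (0.35). Of the 2 remaining A-type genes, CYCA2;4 (AT1G80370) fell in brd1213 and swi3d and rose in minu12 (−0.39, −0.43 and 0.37). Its brd1213 call failed without wild-type library 1 or brd1213 library 1 or 3, and its minu12 call without minu12 library 2. CYCA1;1 (AT1G44110) rose in minu12 alone among its calls (0.41), though not without wild-type library 1 or minu12 library 3. Without wild-type library 1 or minu12 library 3, 3 in place of 5 A-type genes rose in minu12.

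B-type cyclins drive entry into mitosis. Of the 9 genes, 5 rose in minu12 and 5 in swp73b, where 24.1% and 23.9% of all genes rose, and 3 rose in pms2ab, where 29% of all genes did. In brip12 3 fell and in brd1213 2, where 13.2% and 10.6% of all genes fell, and none was called in brm by limma or edgeR, with 1 at an unadjusted limma p under 0.05. Without wild-type library 1 the rises numbered 3, 3 and 1. The gene with the widest change was CYCB3;1 (AT1G16330). It stood at 80, 76 and 109.7 reads in wild type and 246, 239 and 275 in minu12 (1.52 ± 0.16 SE, limma adjusted p = 8.87e-09). It stood at 172, 184 and 178 in pms2ab (1.02 ± 0.16 SE, limma adjusted p = 4.25e-06) and 185, 148 and 179.5 in swp73b (0.95 ± 0.16 SE, limma adjusted p = 2.07e-05). All 9 of these mutant libraries lay above wild type, and in no other mutant was the gene called.

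CYCB1;3 (AT3G11520) rose in the same 3 mutants, at 208, 209 and 229.8 reads in minu12 against 91.5, 127 and 164 in wild type (0.79 ± 0.20 SE, limma adjusted p = 0.00136), by 0.73 in swp73b and by 0.51 in pms2ab, where the call failed without wild-type library 1 or pms2ab library 1 or 2. CYCB1;1 (AT4G37490), widely used to mark dividing cells, stood at 109, 135 and 161 reads in wild type. It rose in pms2ab (0.44), though not without wild-type library 1, and in swp73b (0.41). It fell in brd1213, at 88.7, 115 and 75.4 (−0.54 ± 0.16 SE, limma adjusted p = 0.0133), and in brip12, at 87, 90.7 and 106 (−0.50 ± 0.16 SE, limma adjusted p = 0.0187). Neither fall was called without wild-type library 3, whose 161 reads were the highest of wild type, and no B-type fall at all was called in these 2 mutants without that library. The same held for brd1213 without its library 3 and for brip12 without its library 1 or 2. The rise in swp73b failed with any of 5 of the 6 libraries left out. CYCB2;2 (AT4G35620) likewise fell in brd1213 and brip12 (−0.38 and −0.37) and rose in swp73b and minu12 (0.56 and 0.44). Its brd1213 and brip12 calls failed with any of 5 and any of 4 of the 6 libraries left out, and the minu12 call without wild-type library 1.

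CYCB1;2 (AT5G06150) rose in minu12 (0.51), swp73b (0.34, not called without wild-type library 1) and swi3d. In swi3d it stood at 374, 365 and 346 reads against 262, 325 and 305 in wild type (0.29 ± 0.10 SE, limma adjusted p = 0.0422), which did not pass once wild-type library 1 or 3 or any swi3d library was dropped. CYCB2;4 (AT1G76310) rose in minu12 alone among its calls (0.36), which failed without library 1 or 2 of wild type or library 2 or 3 of minu12, and CYCB1;4 (AT2G26760) fell in brip12, at 165, 179 and 202 reads against 236, 201 and 292 (−0.40 ± 0.14 SE, limma adjusted p = 0.0281). That fall did not pass once wild-type library 1 or 3 or brip12 library 1 or 2 was dropped. CYCB2;1 (AT2G17620) and CYCB2;3 (AT1G20610) were called in no mutant. KN (AT1G08560), the syntaxin that fuses vesicles at the new cell wall, rose in minu12 (0.50), swi3d and sys123. It stood at 393, 486 and 494 reads in wild type, 562, 565 and 616 in swi3d (0.35 ± 0.12 SE, limma adjusted p = 0.0352) and 566, 577 and 558 in sys123 (0.32 ± 0.12 SE, limma adjusted p = 0.0494). Each of the last 2 calls failed without wild-type library 1 and without any one of the mutant's own libraries, and the sys123 call also under edgeR's quasi-likelihood test (adjusted p = 0.0622).

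Mitotic genes often carry the core letters AACGG in their promoters, which MYB3R factors recognise in Arabidopsis. In the same 300-base windows, on both strands, AACGG stood in 23.4% of all protein-coding genes and at least 2 copies in 4.53%. Of the 9 B-type cyclins, 7 held it (77.8%) and 6 held at least 2 copies (66.7%). High shares were not confined to mitotic genes. The letters stood in 4 of 5 genes of histone H3.1, made in S phase (80%), and in 3 of the 5 CDK inhibitors (60%). They stood in 18 of 28 further genes of mitosis and cytokinesis (64.3%), but in only 1 of the 5 CDK genes (20%). The 4 B-type stretches below, on the gene's strand, are shown as examples of 2 copies close together. They lie at chr5:1861704-1861763, chr3:3627274-3627333 and chr1:7137843-7137902 (minus strand) and at chr4:16901467-16901526 (plus strand) of TAIR10.1. CYCB2;1 also holds copies as close, at 85 and 56 bases before the gene start, and is not shown. The copies of CYCB1;1, at 168, 61 and 13 bases, are wider apart and are not shown. The capitals mark AACGG or its reverse complement CCGTT. Of these 4 genes, the first 3 below were called in at least 2 mutants and the last in none.
CYCB1;2: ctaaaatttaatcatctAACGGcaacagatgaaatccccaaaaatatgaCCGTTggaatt
CYCB1;3: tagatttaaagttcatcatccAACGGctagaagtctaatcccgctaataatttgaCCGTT
CYCB2;2: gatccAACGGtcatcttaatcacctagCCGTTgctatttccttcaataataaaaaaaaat
CYCB2;3: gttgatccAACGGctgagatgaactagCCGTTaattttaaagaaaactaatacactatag

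CDK genes were called in 4 of the 11 mutants. CDKA;1 (AT3G48750), the kinase of the whole cycle, stood at 1401, 1499 and 1295 reads in wild type and 1653, 1668 and 1643 in brip12 (0.24 ± 0.06 SE, limma adjusted p = 0.00235), rose by 0.20 in sys123 and fell by 0.17 on the log2 scale in swp73b. The sys123 call failed without wild-type library 3, and the swp73b call without wild-type library 2 or swp73b library 1. Among the mitotic B-type kinases, CDKB1;1 (AT3G54180) fell in brip12, at 108, 116 and 124 reads against 145, 172 and 177 in wild type (−0.50 ± 0.14 SE, limma adjusted p = 0.00762), and in brd1213, at 109, 141 and 117 (−0.43 ± 0.14 SE, limma adjusted p = 0.0273). CDKB1;2 (AT2G38620) fell in brd1213, at 65, 76.5 and 73.5 reads against 84.2, 105 and 112 (−0.47 ± 0.16 SE, limma adjusted p = 0.0355). The brd1213 libraries lay below wild type for both, yet both calls failed when library 2 or 3 of wild type or library 1 or 3 of brd1213 was dropped. CDKB2;1 (AT1G76540) rose in sys123, at 632, 591 and 634 against 470.1, 508 and 542 (0.29 ± 0.11 SE, limma adjusted p = 0.0427), which failed when wild-type library 1 or 2 or any sys123 library was dropped and under edgeR's quasi-likelihood test (adjusted p = 0.0514). CDKB2;2 (AT1G20930) was called in no mutant.

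Of the 5 CDK inhibitors, 4 rose in pms2ab and 2 each in minu12 and brm, where 29%, 24.1% and 24.7% of all genes rose. In swi3d and sys123 2 each fell, where 11% and 12.8% of all genes fell. With 1 library left out, the rises came down to as few as 2 in pms2ab, 1 in minu12 and 1 in brm. The falls came down to as few as 0 in swi3d and 1 in sys123. KRP1 (AT2G23430), which binds and blocks cyclin-CDK complexes, stood at 260.1, 187 and 172 reads in wild type and 369, 330.0 and 370.3 in brm (0.81 ± 0.14 SE, limma adjusted p = 2.72e-05). It rose by 0.36 in minu12 and 0.43 in pms2ab, in both with libraries overlapping wild type and with calls that failed with any of 3 or 4 of the 6 libraries left out. It fell in swi3d, at 158, 162 and 130.5 (−0.44 ± 0.14 SE, limma adjusted p = 0.0267), which failed without wild-type library 1, whose 260.1 reads were the highest of wild type, or swi3d library 3. KRP2 (AT3G50630) stood at 121, 127 and 132 in wild type and 88.8, 90.6 and 69.9 in sys123 (−0.61 ± 0.13 SE, limma adjusted p = 0.00101). It also fell in swi3d (−0.41) and brip12 (−0.37), and rose in minu12 (0.56) and pms2ab (0.45), with no overlap with wild type in any of the 5. The brip12 call failed whichever of the 6 libraries was left out, and the swi3d call with any of 5.

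KRP3 (AT5G48820) was read 19.9, 29.1 and 47.5 times in wild type, so its 3 libraries differed widely. It rose in brm (0.80) and pms2ab (0.83) and fell in sys123, at 15, 20.8 and 13.2 (−0.88 ± 0.31 SE, limma adjusted p = 0.035). The rises failed with any of 4 of the 6 libraries left out. The sys123 and wild-type ranges overlapped, and the fall was not called without wild-type library 2 or 3 or sys123 library 1 or 3. SMR1 (AT3G10525), a promoter of endoreduplication in sepals and leaves, rose in pms2ab, at 103, 111 and 114 reads against 60.2, 59.3 and 70.6 (0.78 ± 0.21 SE, limma adjusted p = 0.00181). SIM (AT5G04470), which stops division in leaf hairs, fell in brm, at 194, 174 and 203 against 241, 268 and 346 (−0.57 ± 0.14 SE, limma adjusted p = 0.00132), and was called in no other mutant. Of 2 trichome markers, GL2 fell in brm (−0.79) and GL1 was not called, and their sum was 309 to 352 in brm and 483 to 682 in wild type. That sum was lower still in pms2ab (162 to 177) and swp73b (148 to 169), where SIM was not called.

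**Figure D5:**
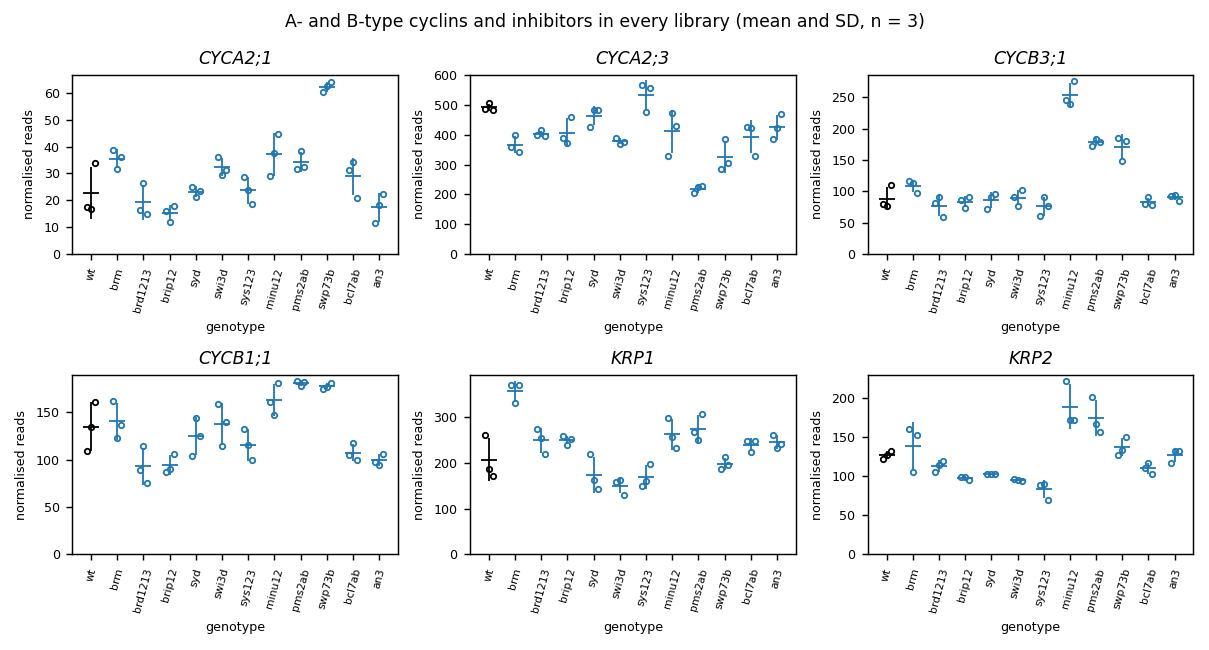
Normalised reads (linear axis from 0) of 4 A- and B-type cyclin genes and 2 CDK inhibitor genes in each library, by genotype, with wild type in black; circles are libraries, dashes the mean and bars the SD (n = 3). The swp73b libraries stand at 60.3 to 64.2 reads of the first gene where wild type stands at 16.7 to 33.8, and KRP2 is above wild type in minu12 and pms2ab.

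The classes were compared by the mean over their mutants, a contrast in which the wild-type libraries cancel. Its SE and p-value reflect the scatter among libraries within genotypes, not the spread among the mutants of a class. Relative to the MAS mutants, 32 of the 44 genes were lower and 4 higher in BAS, against 32.9% and 31.7% of all genes, and 31 were lower and 4 higher in SAS, against 34.3% and 35.3%. All 6 MCM genes and all that were called of the 9 B-type cyclins (7 in BAS, 6 in SAS) were lower than in MAS. The mutants of BAS differed in this. The median MCM change from wild type was 0.42 in brm and −0.16 in brd1213 and in brip12, against 0.47 in minu12 and 0.53 in pms2ab. With brm left out of BAS, an alternative chosen after seeing the data, all 6 MCM genes were still lower. Their median difference from MAS was then −0.63 in place of −0.44. The shares of all genes called without brm are not given. CYCB3;1 had a lowest, median and highest value of 58.5, 90.4 and 116 reads over the 9 BAS libraries, 60.2, 90.5 and 102 over the 9 SAS libraries and 172, 211 and 275 over the 6 MAS libraries. BAS minus MAS was −1.26 ± 0.11 (SE, limma adjusted p = 1.28e-11) and SAS minus MAS −1.34 ± 0.11 (SE, limma adjusted p = 2.2e-12), with no overlap. CYCD1;1 was higher in BAS than in MAS (1.11), and within MAS the pms2ab libraries held 203 to 229 reads and the minu12 libraries 538 to 644.

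Further genes differed between MAS and the other classes. CYCA2;3, at 203, 278 and 473 reads in MAS (lowest, median, highest), was higher by 0.39 in BAS and 0.60 in SAS. CYCB1;3 had 156, 198 and 229.8 reads in MAS and 75, 104 and 174 in BAS, a difference of −0.84 ± 0.13 (SE, limma adjusted p = 1.18e-06). CYCA2;1 was lower in BAS by 0.69 on the log2 scale, and CYCD3;2 higher (0.35). PCNA1 had 163, 212 and 275 reads in SAS and 418, 457 and 499 in MAS, a difference of −1.12 ± 0.09 (SE, limma adjusted p = 5.15e-12) with no overlap. KRP3, at 13.2, 20.8 and 34 in SAS and 37, 50.4 and 71.9 in MAS, differed by −1.27 ± 0.20 (SE, limma adjusted p = 1.64e-06). CYCD3;1 was higher in SAS than in MAS (0.22), which was not called under scaling by library totals (0.13, limma adjusted p = 0.104).

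Between BAS and SAS, 20 genes were higher in BAS and 11 lower, against 27.4% and 28.8% of all genes. KRP1 had 219, 257 and 370.3 reads in BAS and 130.5, 161 and 218 in SAS, a difference of 0.78 ± 0.08 (SE, limma adjusted p = 3.35e-09) with no overlap. PCNA1 differed by 0.76 and KRP3 by 0.74. CYCD3;1 had 484, 606 and 780.0 reads in BAS and 771, 1012 and 1166 in SAS (−0.69 ± 0.06 SE, limma adjusted p = 2.88e-11), and CDKB2;1 and CDKB1;1 were also lower in BAS (−0.36 and −0.32). All 6 MCM genes were higher in BAS. With brm left out of BAS, an alternative chosen after seeing the data, 3 of the 6 were higher. The count of genes higher in BAS became 8, while 14 were lower. The 27.4% and 28.8% of all genes belong to the full contrast, and the shares under that alternative are not given. The 7 B-type cyclins lower in BAS under that alternative compare with 5 in the full contrast. Those 5 became 1 without brd1213 library 3, 2 without brm library 3, brip12 library 1, swi3d library 1 or sys123 library 1, and 3 without syd library 2.

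The wider pathway was read from 4 lists of other cell cycle genes and 1 of cyclins outside the 44. Of 33 further replication and S phase genes, 20 rose and 1 fell in brm, 18 rose and 1 fell in minu12, 17 rose and 2 fell in pms2ab, and 12 rose and 1 fell in swp73b. Of all genes, 24.7%, 24.1%, 29% and 23.9% rose in these 4 mutants. In sys123, 2 rose and 7 fell, and for syd 2 rose and 6 fell, where 12.8% and 11.3% of all genes fell. Those with the largest rises in brm were ORC6 (1.35) and ORC2 (1.06), subunits of the origin recognition complex. In minu12 they were MCM10 (1.05), a replication factor, and DEL1 (1.04), an atypical E2F, and in pms2ab TSO2 (1.19) and RNR2A (1.05), which encode ribonucleotide reductase subunits. The largest falls in sys123 were FAS2 (−0.95), of the chromatin assembly factor, POLA2 (−0.62), of the primase complex, and MCM10 (−0.56). The median change over the 33 genes was 0.36 in brm, 0.32 in minu12, 0.34 in pms2ab and −0.23 in sys123.

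Genes of mitosis and cytokinesis were also listed. Of 28, 14 rose and 2 fell in minu12, 9 rose and 2 fell in swp73b, 6 rose and 4 fell in pms2ab, and 3 rose and 1 fell in brm, where 24.1%, 23.9%, 29% and 24.7% of all genes rose. The difference between mutants was not tested. The largest rises in minu12 were in POK1 (1.82), a kinesin that guides the division plane, CENH3 (1.47), the centromere histone, and AUR3 (1.17), an Aurora kinase. Of 5 genes of histone H3.1, made in S phase, 4 fell in sys123 and 4 in brip12, where 12.8% and 13.2% of all genes fell. Of these 5, 2 fell in swi3d and 2 in brd1213, where 11% and 10.6% of all genes fell. In brm 2 rose, where 24.7% of all genes did, and in pms2ab 2 rose and 2 fell, against 29% and 29.8%. Of 20 further inhibitors, kinases and endocycle regulators tested, CDKD1;1 had the largest rise in minu12, pms2ab and swp73b (2.03, 1.96 and 1.65), and 5 rose and 6 fell in pms2ab, close to the 29% and 29.8% of all genes. Of 8 further cyclins tested, 2 rose and 2 fell in minu12 and in pms2ab, also near the shares of all genes. In brm 0 rose and 3 fell, and in swp73b 1 rose and 4 fell, where 25.5% of all genes fell in each mutant. Those called in minu12 and pms2ab included CYCA2;2 (0.68 and 0.83) and CYCA1;2 (−1.90 and −1.66).

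Seedlings hold many cell types, so markers of some of them were read in the same libraries. Of 5 shoot meristem genes, STM and KNAT1 rose and CLV1 fell in brm, minu12 and pms2ab. STM stood at 7.32 to 12.4 reads in wild type, 32.4 to 42.5 in brm, 45.5 to 55.8 in minu12 and 66.2 to 75.9 in pms2ab. WUS and CLV3 were at 0 in all libraries of wild type, brm, sys123 and syd. The summed level of the 5 was 2254 to 3143 in wild type, 1643 to 2383 in brm, 1243 to 1474 in minu12 and 802 to 978 in pms2ab, most of it CLV1. STM also rose in swp73b, at 23.5 to 42 reads, and in bcl7ab, at 21.1 to 26.1.

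Of 6 root meristem genes, 2 rose in brm and in minu12 and 3 in pms2ab and in swp73b, and 1 fell in sys123 and for syd, where 24.7%, 24.1%, 29% and 23.9% of all genes rose and 12.8% and 11.3% fell. Their sum was 1239 to 1296 in wild type, 1260.0 to 1423 in brm, 1564 to 1896 in minu12, 1530.0 to 1645 in pms2ab and 1327 to 1504 in sys123. Of 4 growing leaf genes, 3 rose in brm and 2 in minu12, where 24.7% and 24.1% of all genes rose. In pms2ab 2 rose and 1 fell, against 29% and 29.8% of all genes. The sum of these 4 genes was 894 to 1149 in wild type, 1246 to 1463 in brm, 1141 to 1231 in minu12 and 963 to 1034 in pms2ab. It was highest in brip12, at 1370 to 1541, where 1 of the 4 rose and 11.8% of all genes did. Of 4 mature green leaf genes, 3 fell in brm, pms2ab and swp73b and 2 in minu12. Of all genes, 25.5%, 29.8%, 25.5% and 24.8% fell in these mutants. The sum of the mature leaf genes was 447300.0 to 662200.0 in wild type and 367800.0 to 436200.0 in pms2ab. The sum of 5 stomatal lineage genes was 572 to 884 in wild type, 281 to 353 in pms2ab and 359 to 455 for syd. It was 789 to 870 in minu12 and 1057 to 1233 in brip12. Of these 5, 3 fell in pms2ab and 3 for syd, where 29.8% and 11.3% of all genes fell. In minu12 2 rose and in brip12 4, where 24.1% and 11.8% of all genes rose. The sum of 3 root hair genes was 696 to 1121 in wild type, 1563 to 2593 in swp73b and 1538 to 1950 in brip12. Of these 3, 2 rose in swp73b and 3 in brip12, where 23.9% and 11.8% of all genes rose. No marker of these other lists was at 0 in all libraries of a genotype. The part of cell-type make-up in the changes of the 44 genes was not tested.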

How the data were processed

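Total RNA of whole seedlings was sequenced as single reads, per the labels' protocols. HISAT2, edgeR and TAIR10 are listed in the submitters' processing notes, with no versions. Which annotation and counting tool were used, and whether strand was, is not stated in those notes. The deposited values are a signal, in the form of edgeR's pseudo-counts at a common library size. Whole reads were recovered from all 1171728 values (100% within a tolerance of 1e-04). All 66 value columns, in 11 tables that repeat the wild-type columns, were used.

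The main test was limma 3.58.1 with a trend (R 4.3.3) on log2(value + 1), with 1 fit over all 36 libraries, a term per genotype, 24 residual degrees of freedom and genes with a mean of at least 1. P-values were Benjamini-Hochberg adjusted over all 23297 genes within a comparison. Log2 changes carry their SE and understate changes of genes near 0. Data simulated for the brm and wild-type libraries only, with changes of 2-fold or more, were used to check that the fit recovers known changes. Smaller changes, which most of those given here are, were not simulated. Per-library values are given in order of replicate number.

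Every gene of the 44 may be named. The 3 largest rises and 3 largest falls called in a comparison, with a mean of at least 10, were picked for full statistics. So were up to 3 called genes per direction of each list. Some of these are given by their change alone. Full statistics are also given for other changes, such as those of MCM6 in minu12, MCM3 in sys123 and E2FA in brm. The members and lists were chosen with earlier results of these data known. Loci were matched to symbols, and promoters read, in RefSeq's TAIR10.1, so no coordinate of the files' own build is given. The alternatives were no filter, a stricter filter (23 or more in 3 libraries), pseudocounts of 0.1 and 5, median-ratio scaling, library totals, fits of only the groups compared, a replicate block, a 2-fold threshold, edgeR 4.0.16's quasi-likelihood test on recovered reads, each library left out, and, added after seeing the data, BAS without brm. The pms2a and pms2b loci were not analysed here.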

Additional observations from a re-analysis of the deposited data

How the results depend on the processing

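The counts of genes called kept within 1.5 times of the reported ones, in every comparison, under no filter, the stricter filter, both pseudocounts, median-ratio scaling, edgeR's quasi-likelihood test and the replicate block. The deviations of same-numbered libraries of different genotypes had r from −0.206 to 0.148 over 198 pairs. Pairs with different numbers ranged from −0.223 to 0.22 over 396 pairs. These r cannot show whether same-numbered libraries were grown or prepared together, because shared handling need not leave a shared deviation. With the replicate block the calls numbered 21 in brm, 6 in brd1213, 8 in brip12, 10 for syd, 10 in swi3d, 18 in sys123, 28 in minu12, 23 in pms2ab, 15 in swp73b, 2 in bcl7ab, 1 for an3, and 31, 36 and 35 in BAS against SAS, BAS against MAS and SAS against MAS.

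With a 2-fold threshold as well, 0 of the 44 genes were called in brm, brd1213, brip12, syd, swi3d, sys123, bcl7ab and an3. None was called in BAS against SAS either, since most changes were smaller. The calls were 1 in minu12, 4 in pms2ab, 1 in swp73b, 2 in BAS against MAS and 6 in SAS against MAS. The shares of all genes passing that threshold are not given, so these counts have no background. In fits of only the groups compared, which have fewer residual degrees of freedom, the calls were 1 in brd1213, 2 in brip12, 3 for syd, 5 in swi3d, 8 in sys123 and 0 for an3. Over all genes those fits called 2546 in place of 4621 in brd1213, 3734 in place of 5830 in brip12, 2696 in place of 5418 for syd, 3210 in place of 5166 in swi3d, 3643 in place of 6300 in sys123 and 1380 in place of 2509 for an3. Scaling by library totals gave 6 in bcl7ab, where it moved the median of all genes by −0.17; that shift was 0.12 in swp73b and −0.11 in sys123, and the share of higher among all calls moved from 53.6% to 25.3% in bcl7ab, 48.3% to 61.2% in swp73b and 52.5% to 31.7% in sys123, with brip12 going from 47.3% to 36.8% and an3 from 46.7% to 32.1%; no called gene of the 44 was called the other way. Of the 44, library totals gave 1 rise and 16 falls in sys123, 1 and 6 in swi3d, 16 and 3 in swp73b, 1 and 7 in brip12, 1 and 6 for syd, 0 and 6 in bcl7ab and 0 and 1 for an3, and 6 in place of 11 lower in BAS than in SAS and 2 in place of 4 higher in SAS than in MAS.

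Leaving out 1 library at a time, the calls ranged from 17 to 22 in brm, 1 to 7 in brd1213, 2 to 7 in brip12, 5 to 10 for syd, 5 to 10 in swi3d, 11 to 15 in sys123, 21 to 30 in minu12, 19 to 25 in pms2ab, 12 to 16 in swp73b, 2 to 4 in bcl7ab, 0 to 2 for an3, 26 to 33 in BAS against SAS, 33 to 37 in BAS against MAS and 34 to 36 in SAS against MAS. Of the 69 changes given with full statistics, none reversed under any alternative.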
